A study of Danio rerio with 9 samples.

Results

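The genes described here encode Wnt ligands, their secreted inhibitors, their receptors and the proteins that carry the signal inside the cell. They were taken by gene symbol from the array annotation (wnt genes, fzd, sfrp, dkk, axin, lrp5 and lrp6, dvl, ctnnb, apc, tcf7, ror1 and ror2, vangl, prickle and dact), using probe sets with exactly 1 symbol. That gave 40 genes on 47 probe sets, out of 8793 named genes on the array, and the brightest probe set stood for each gene. No measured symbol matched apc, lrp5, lrp6, ror1 or tcf7 itself, so these are not analysed here.

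The study profiled leukaemia cells of 2 zebrafish models labelled as T cell acute lymphoblastic leukaemia, sorted by green fluorescence from the bodies of fish in end-stage disease. The hMYC-ER group (6 arrays, numbered 1 to 6 in the sample titles) carries human MYC joined to part of the oestrogen receptor. The hlk group (3 arrays, numbered 7 to 9) is a line with inherited susceptibility to T cell malignancy. Each sample had 1 array, the series design is a comparison of these models as classes, and the labels give no age, promoter, litter or scan date. Whether the arrays came from separate fish is not stated, so p-values measure the spread between samples, which may be technical.

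Wnt proteins are secreted lipid-modified ligands that bind Frizzled receptors. In the canonical branch, Dishevelled is recruited to the receptor and a destruction complex built on Axin and Apc stops degrading beta-catenin, which then enters the nucleus and acts with Tcf and Lef factors. Other branches steer cell polarity, movement and calcium without beta-catenin. In the thymus, Tcf and Lef factors are needed for early T cell development. Both overactive beta-catenin and loss of the Tcf7 factor are linked to T cell leukaemia in mice.

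Values below are log2 signals after quantile normalization, with signals under 16 set to 16, so that 4 is the floor and values there have no order. Differences are hMYC-ER minus hlk, and a gene was called changed at a limma adjusted p under 0.05, with adjustment over all 8793 genes. Median signals of the arrays ran from 90.0 to 111.0 before normalization. On hlk array 7 the signal ratio of the 3' to the 5' gapdhs control probe sets, a gauge of RNA integrity, was 50.8, against 2.20 to 4.50 on the other 8 arrays. Several results that rest on that array are therefore also given without it.

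The labelled cell type was checked with marker genes. Of 6 measured T cell markers, limma called 4 lower in hMYC-ER and 0 higher. Over all genes, 11.4% were called lower in hMYC-ER and 10.4% higher. The other 2 did not pass and pointed the other way, tox (0.76, unadjusted p 0.0255, adjusted p 0.0907) and cd28 (0.29, adjusted p 0.760). The summed signal of the 6 was 1165 to 3036 on hMYC-ER arrays and 22025 to 27217 on hlk arrays. Their brightest member was runx3, with a mean of 10.48 in hMYC-ER and 13.99 in hlk. All 9 measured B cell markers were higher in hMYC-ER, with a summed signal of 57395 to 71003 in hMYC-ER and 5372 to 8367 in hlk. Among them, the light chain gene igl1c1 averaged 14.04 in hMYC-ER and 6.32 in hlk, and pax5 averaged 11.09 and 4.31. Of the T cell markers, trac averaged 7.02 in hMYC-ER and 11.61 in hlk, and gata3 averaged 5.51 and 10.20. For the hMYC-ER group, these markers thus go against the T cell label. Every Wnt difference below thus lies between groups that also differ in these lineage markers, and the part of that in each result was not tested.

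Of the 40 Wnt genes, 5 were changed (12.5%), against 21.8% of all genes. The dishevelled gene dvl2 was higher in hMYC-ER, where 10.4% of all genes were called in that direction. The ligand gene wnt11, the dickkopf-family gene dkk3b, the beta-catenin gene ctnnb2 and the scaffold gene axin1 were lower in hMYC-ER, a direction called for 11.4% of all genes. The same 5 genes were the ones whose hMYC-ER and hlk values did not overlap (12.5%), against 23.1% of all genes. Without hlk array 7 the same 5 genes were changed, against 22.3% of all genes. The median difference was 0 over the 40 genes and -0.08 over all genes.

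Most of the family was dim in both leukaemias. On average over the arrays, 30 of the 40 genes (75.0%) lay at a log2 signal of 6 or less, against 35.2% of all genes, and 2 of these 30 were changed, where 6.81% of equally dim genes were called. Only 5 of the 40 (12.5%) averaged above 8, against 46.0% of all genes, and 2 of these 5 were changed, where 30.5% of equally bright genes were called. At the floor on all 9 arrays were 3 genes, wnt8b, wnt10b and vangl2, and 11 genes were above the floor on every array. These bands of brightness were chosen after the values were seen.

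**Figure D1:**
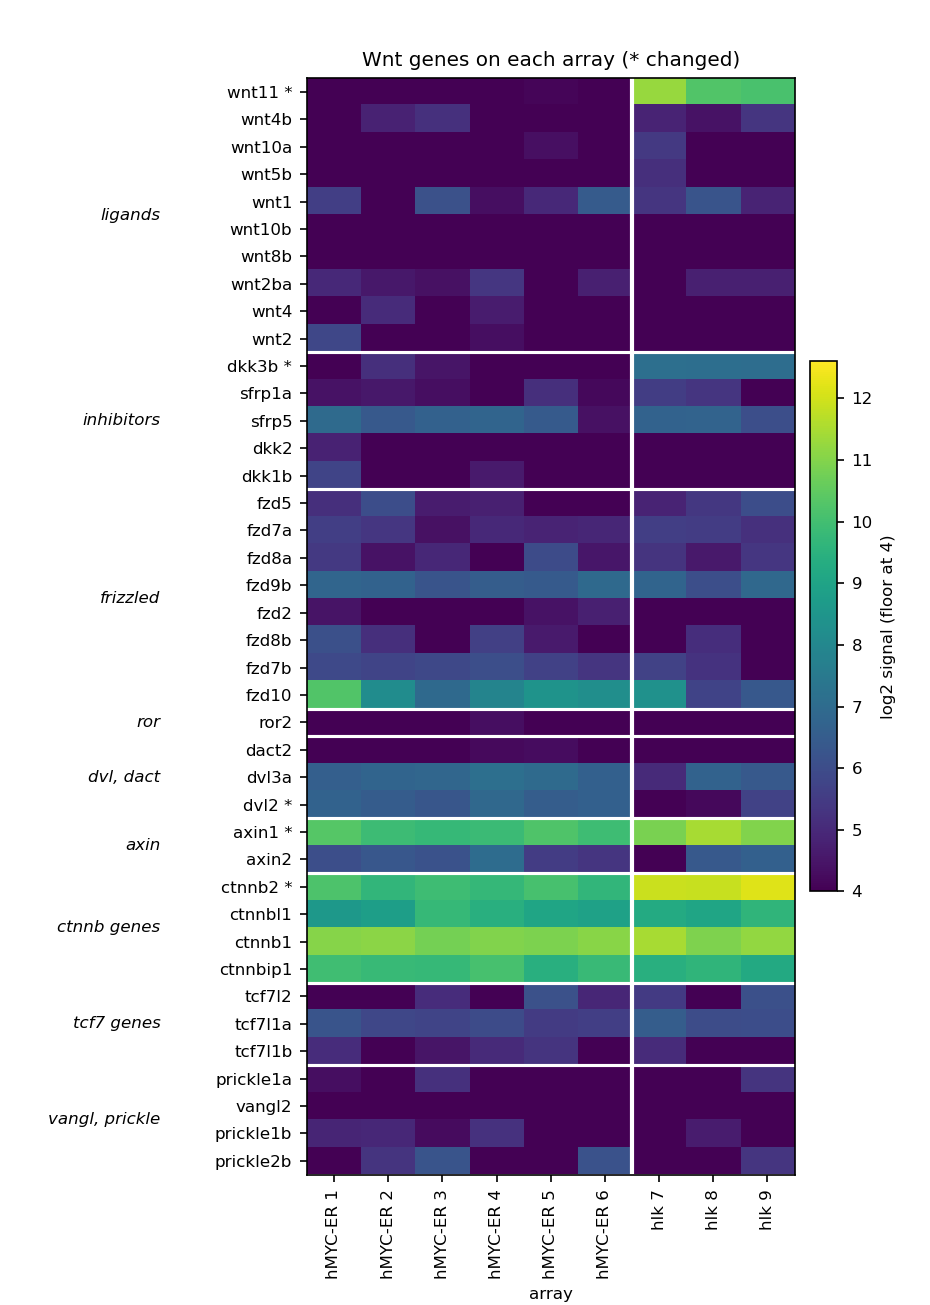
Log2 signal of the 40 Wnt genes (rows, grouped by role) on the 6 hMYC-ER arrays (left of the white line) and the 3 hlk arrays (right), with the floor at 4 in the darkest colour and an asterisk at the 5 changed genes. Only wnt11 stands at 4.00 to 4.11 on every hMYC-ER array and above 10 on every hlk array, and the ctnnb genes and axin1 are bright throughout.

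Among the ligands, wnt11 was the only changed gene of 10 (10%, against 21.8% of all genes). Wnt11 is a ligand of the polarity branch. Its signal was at the floor on 5 of the 6 hMYC-ER arrays and at 4.11 on array 5, against 11.29, 10.28 and 10.13 on hlk arrays 7, 8 and 9. As deposited, before normalization, the hMYC-ER signals were 3.67 to 16.2, against 2567, 1222 and 1128 on the hlk arrays. The groups lay far apart and all 3 hlk arrays were high. The hMYC-ER mean was 4.02 ± 0.05 (SD, n = 6), against a hlk mean of 10.57 ± 0.63 (SD, n = 3). The groups thus differed by -6.55 (SE 0.23, adjusted p 1.54e-06), or 93.5-fold. Because hMYC-ER sits at the floor, the size, the hMYC-ER SD, the SE and the p depend on it. The difference ran from -4.57 with a floor of 64 to -7.73 with a floor of 1 (SE 0.57, adjusted p 4.64e-05). The small hMYC-ER SD thus does not measure the spread between samples. Without hlk array 7, which had the highest value, the difference was -6.20 (adjusted p 4.21e-08).

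No other ligand passed. Differences of the other 9 ran from -0.53 for wnt4b to 0.36 for wnt2, and no array exceeded 6.48, reached by wnt1 on hMYC-ER array 6. The wnt5b gene, whose product also acts in the polarity branch, was at the floor on all hMYC-ER arrays and on 2 of the 3 hlk arrays, with 5.16 on hlk array 7 (difference -0.39, adjusted p 0.308). For wnt4b the hMYC-ER values had a lowest of 4.00, a median of 4.00 and a highest of 5.20, against 4.87, 4.42 and 5.32 in hlk (difference -0.53, SE 0.34, adjusted p 0.322). The neural ligand gene wnt1 varied within hMYC-ER between 4.00 and 6.48 and within hlk between 4.87 and 6.24.

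The secreted inhibitors were 5, of which dkk3b was changed (20%, against 21.8% of all genes). Dickkopf proteins of the Dkk1 type bind Lrp co-receptors and block canonical signalling, whereas Dkk3 is a divergent family member. For dkk3b, 4 of the 6 hMYC-ER arrays were at the floor and the highest stood at 5.17, against 7.14, 7.11 and 7.08 in hlk. The hlk arrays were nearly identical, array 7 included, and none overlapped with hMYC-ER. The hMYC-ER mean was 4.28 ± 0.48 (SD, n = 6), against a hlk mean of 7.11 ± 0.03 (SD, n = 3). The groups thus differed by -2.83 (SE 0.27, adjusted p 2.85e-04), or 7.12-fold. The floor again shapes the hMYC-ER spread. The dkk3b difference ranged from -1.11 with a floor of 64 to -3.66 with a floor of 1 (SE 0.63, adjusted p 0.00480).

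The secreted Frizzled-related genes sfrp1a and sfrp5 encode decoys that bind Wnt ligands. Neither passed, with differences of -0.53 (SE 0.38, adjusted p 0.369) for sfrp1a and -0.23 (SE 0.54, adjusted p 0.811) for sfrp5. The sfrp5 signal was 6.40 to 6.96 on 5 hMYC-ER arrays and 4.39 on array 6, against 6.71, 6.73 and 6.07 in hlk. A dimmer sfrp5 probe set gave 0.95 (adjusted p 0.296 over all probe sets). The canonical inhibitor gene dkk1b (0.40, SE 0.40, adjusted p 0.536) and dkk2 were at the floor on all hlk arrays and on 4 and 5 of the 6 hMYC-ER arrays.

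In sorted cells, fewer cells of a type and less RNA per cell cannot be told apart, and several Wnt pathway genes are also expressed in stroma, nerve and muscle. Markers of stromal and endothelial cells, 9 measured and 0 changed by limma (2 at an unadjusted p under 0.05), summed to 266 to 328 in hMYC-ER and 375 to 427 in hlk. Of these, tek and dcn were at the floor on all hMYC-ER arrays and kdrl on all hlk arrays. Neural markers, of which 1 of 9 was higher in hlk (snap25a) and 4 had an unadjusted p under 0.05, summed to 306 to 478 in hMYC-ER and 714 to 956 in hlk. Muscle markers, of which 1 of 13 was higher in hlk (mylz3, the 1 with an unadjusted p under 0.05), summed to 398 to 778 and 631 to 1593. Epithelial markers, 12 measured and 0 changed (3 at an unadjusted p under 0.05), summed to 356 to 471 and 482 to 1569. The stromal, neural and epithelial sums were higher on every hlk array, as were wnt11 and dkk3b, the muscle sums overlapped, and their part in both differences was not tested. Erythroid markers, 8 measured and 0 changed (0 at an unadjusted p under 0.05), overlapped between the groups (561 to 837 and 257 to 928), as did the sums of the 8 myeloid markers (886 to 2267 and 656 to 1002), of which the granule proteoglycan gene srgn was higher in hMYC-ER. The share called was 21.8% over all genes and 6.81% over those with a mean log2 signal of 6 or less. Against these shares, so few calls say little about any of these cell types.

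**Figure D2:**
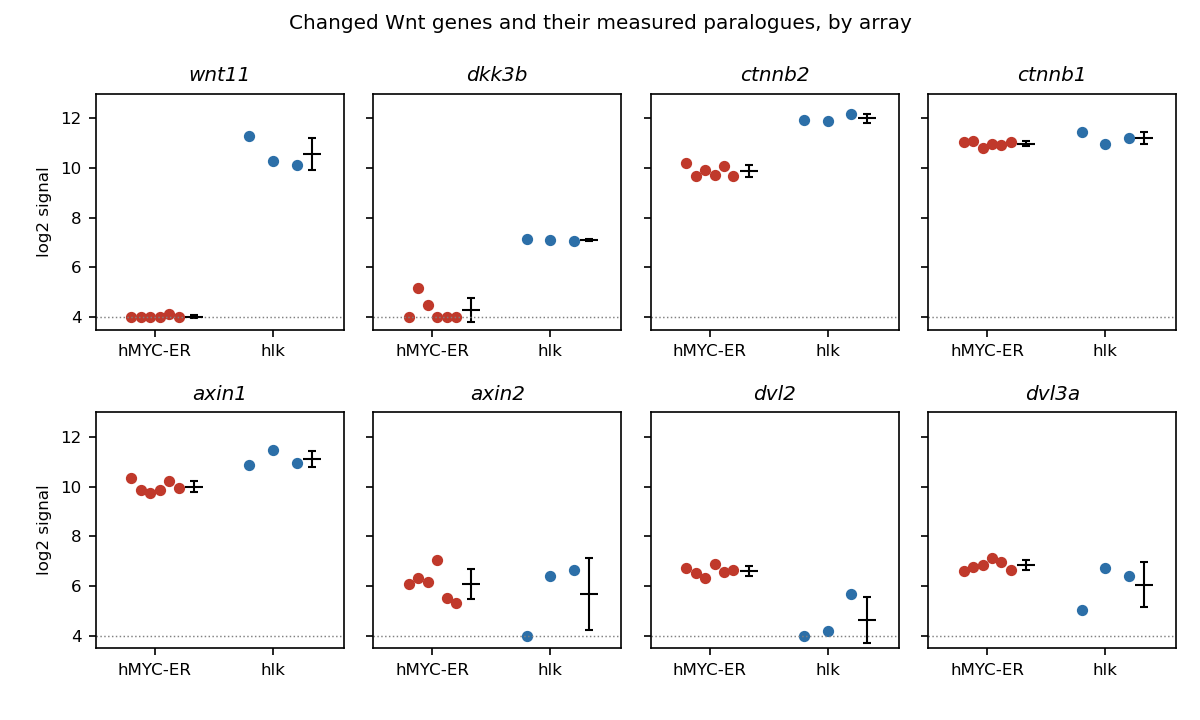
Log2 signal by array for the 5 changed Wnt genes and for ctnnb1, axin2 and dvl3a, the measured paralogues of 3 of them (red, 6 hMYC-ER arrays; blue, 3 hlk arrays; black, mean ± SD; dotted line, floor at 4). The colours do not overlap for wnt11, dkk3b, ctnnb2, axin1 and dvl2, and they overlap for ctnnb1, axin2 and dvl3a.

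Frizzled genes encode the seven-pass membrane receptors of Wnt ligands. Of 8 measured, limma called 0, and 0 had an unadjusted p under 0.05. Of all genes 21.8% were called, and 6.81% of those with a mean log2 signal of 6 or less. With so few genes, a count of 0 does not set the frizzled genes apart. For fzd10, hMYC-ER values ran from 6.95 over a median of 8.21 to 10.28 on array 1, against 8.33, 5.75 and 6.37 on hlk arrays 7, 8 and 9. The groups overlapped because hlk array 7 lay inside the hMYC-ER range (difference 1.51, SE 0.77, adjusted p 0.210). Without that array the difference was 2.28 and still did not pass (adjusted p 0.0753).

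A dimmer fzd10 probe set gave a clearer separation. Its values were 5.84 to 7.18 in hMYC-ER (median 6.65), against 4.00, 5.13 and 4.00 in hlk, and hlk array 7 was at the floor. The difference was 2.18 (SE 0.36, adjusted p 0.00404 over all probe sets). The array maker marks this probe set as able to bind more than 1 transcript, so its signal may not be that of fzd10 alone. The probe sets of fzd10 thus disagree on array 7 and on the call, and averaged together they passed (1.85, adjusted p 0.0230).

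The fzd9b gene showed a similar split. Its brighter probe set was level, with 6.25 to 6.93 in hMYC-ER and 6.78, 6.08 and 6.89 in hlk (difference 0.02, SE 0.22, adjusted p 0.962). The dimmer probe set stood at 5.36 to 6.53 in hMYC-ER, against 4.24, 4.00 and 4.00 in hlk, and the groups differed by 1.74 (SE 0.24, adjusted p 0.00173 over all probe sets). Both averaged passed (0.88, adjusted p 0.0148). The fzd9b probe sets thus disagree on the call.

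For fzd7b the values were 5.31 to 6.07 in hMYC-ER (median 5.81), against 5.71, 5.27 and 4.00 in hlk (difference 0.77, SE 0.35, adjusted p 0.161). Without hlk array 7 the fzd7b difference was 1.13 and narrowly did not pass (adjusted p 0.0514). Its dimmer probe set, on all arrays, pointed the other way (-0.50, adjusted p 0.519 over all probe sets). The other frizzled genes, fzd2, fzd5, fzd7a, fzd8a and fzd8b, had differences of -0.67 to 0.54 and no value above 6.09. The co-receptor gene ror2, a receptor kinase of the polarity branch, was at the floor on 8 of 9 arrays (hMYC-ER array 4 at 4.32).

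**Figure D3:**
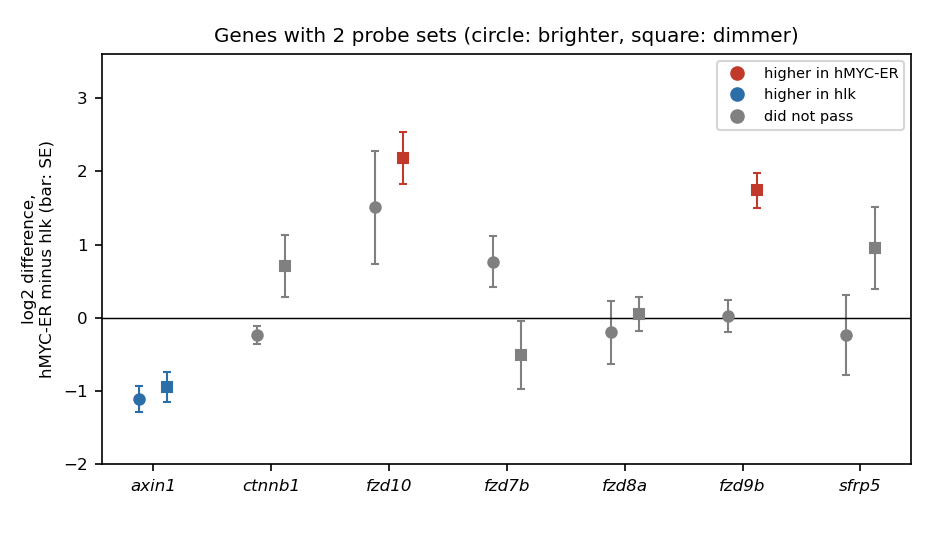
Log2 difference, hMYC-ER minus hlk, with its SE, for the 7 Wnt genes with 2 probe sets (circle, brighter probe set, which stands for the gene; square, dimmer probe set; red, higher in hMYC-ER; blue, higher in hlk; grey, did not pass over all probe sets). Both axin1 probe sets lie below 0 and passed, whereas for fzd10 and fzd9b only the dimmer passed.

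Dishevelled proteins relay the signal from Frizzled into both the canonical and the polarity branch. The dvl2 gene was higher in hMYC-ER, the only changed member in that direction. Its values ran from 6.32 over a median of 6.58 to 6.89 in hMYC-ER, against 4.00, 4.19 and 5.68 in hlk. All 6 hMYC-ER values were close together, and the hlk values were spread but lower. The hMYC-ER mean was 6.60 ± 0.19 (SD, n = 6), against a hlk mean of 4.62 ± 0.92 (SD, n = 3). The groups thus differed by 1.98 (SE 0.35, adjusted p 0.00500), or 3.93-fold. Leaving out hlk array 7, whose value was at the floor, gave 1.70 (adjusted p 0.0161), and a floor of 64 gave 0.60 (adjusted p 0.00958).

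The second dishevelled gene, dvl3a, stood at 6.62 to 7.13 in hMYC-ER (median 6.80), against 5.03, 6.72 and 6.41 in hlk. Its difference of 0.77 did not pass (SE 0.34, adjusted p 0.151). Without hlk array 7, the lowest value, it was 0.26 (adjusted p 0.321). The Dishevelled-binding gene dact2 was at the floor on 7 of 9 arrays, with 4.21 and 4.28 on hMYC-ER arrays 4 and 5 (difference 0.08, SE 0.10, adjusted p 0.592).

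Axin is the scaffold of the destruction complex that marks beta-catenin for degradation. The axin1 gene was lower in hMYC-ER, with values from 9.76 over a median of 9.91 to 10.33, against 10.87, 11.48 and 10.97 in hlk. The groups did not overlap. The hMYC-ER mean was 9.997 ± 0.22 (SD, n = 6), against a hlk mean of 11.11 ± 0.33 (SD, n = 3). The groups thus differed by -1.11 (SE 0.18, adjusted p 0.00348), or 2.16-fold. A further axin1 probe set agreed in direction and passed, with -0.94 (SE 0.21, adjusted p 0.0151 over all probe sets). It read 7.84 to 8.60 in hMYC-ER, against 9.12, 9.54 and 8.93 in hlk. Without hlk array 7 the axin1 difference was -1.22 (adjusted p 0.00524).

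The paralogue axin2, itself a target of beta-catenin and used as a readout of canonical signalling, did not pass. It read 5.33 to 7.05 in hMYC-ER (median 6.11), against 4.00, 6.40 and 6.64 on hlk arrays 7, 8 and 9. Array 7 alone was low. The difference was 0.40 (SE 0.62, adjusted p 0.701), and without array 7 its sign turned to -0.45 (adjusted p 0.532). At this spread, neither direction is shown for axin2.

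Zebrafish have 2 beta-catenin genes, and the maternal product of ctnnb2 sets up the dorsal axis of the embryo. The ctnnb2 gene stood at 9.67 to 10.20 in hMYC-ER (median 9.83), against 11.92, 11.89 and 12.19 in hlk. Every hlk array was more than 1 log2 unit above every hMYC-ER array. The hMYC-ER mean was 9.88 ± 0.23 (SD, n = 6), against a hlk mean of 11.998 ± 0.16 (SD, n = 3). The groups thus differed by -2.12 (SE 0.15, adjusted p 5.75e-05), or 4.34-fold. Over all alternatives it stayed between -2.27 and -2.01, and it was -2.15 without hlk array 7 (adjusted p 2.97e-04).

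The ctnnb1 gene, by contrast in the same arrays, stood at 10.81 to 11.09 in hMYC-ER, against 11.47, 10.95 and 11.22 in hlk. Its difference of -0.23 did not pass (SE 0.12, adjusted p 0.238). A dimmer ctnnb1 probe set gave 0.71 (SE 0.42, adjusted p 0.304 over all probe sets), with its lowest value, 7.50, on hlk array 7. Within each array, the ctnnb2 signal minus the ctnnb1 signal was -1.43 to -0.83 in hMYC-ER and 0.45 to 0.97 in hlk, a shift of -1.89. This gap includes how brightly each probe set binds, so that only the shift between models can be read, and the pair was picked after the values were seen. The size of the shift also depends on the ctnnb1 probe set, here the brighter. The dimmer one averaged 9.26 in hMYC-ER and 8.56 in hlk, below the ctnnb2 mean in both models.

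Of the other ctnnb symbols, ctnnbip1 encodes Icat, which blocks the binding of beta-catenin to Tcf. It stood at 9.42 to 10.08 in hMYC-ER (median 9.81), against 9.42, 9.62 and 9.21 in hlk, and was the only gene not called among the 40 with an unadjusted p under 0.05 (difference 0.39, SE 0.16, adjusted p 0.119). Leaving out hMYC-ER array 5, its lowest in that group, took it past the threshold (0.47, adjusted p 0.0410). The ctnnbl1 gene, whose product is a splicing-associated protein related to beta-catenin in its repeats, differed by -0.23 (SE 0.27, adjusted p 0.597).

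Of 3 measured tcf7-type genes, which encode DNA-binding partners of beta-catenin, limma called 0 and 0 had an unadjusted p under 0.05. With 21.8% of all genes called, 0 of 3 says little about the group. The repressor-type gene tcf7l1a read 5.48 to 6.24 in hMYC-ER (median 5.81), against 6.52, 6.01 and 6.03 in hlk (difference -0.37, SE 0.19, adjusted p 0.212). For tcf7l2, 3 hMYC-ER arrays and hlk array 8 were at the floor, and the highest values were 6.12 in hMYC-ER and 6.10 in hlk (difference -0.50, SE 0.61, adjusted p 0.620). The lymphoid partner gene lef1 lay near the floor in both models, with 4.61 ± 0.39 (SD, n = 6) in hMYC-ER, against 4.39 ± 0.52 (SD, n = 3) for hlk (difference 0.23, adjusted p 0.635).

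The planar polarity genes vangl2, prickle1a, prickle1b and prickle2b encode membrane and cytoplasmic core proteins of the polarity branch. Of these 4, limma called 0 and 0 had an unadjusted p under 0.05. With 21.8% of all genes called, 0 of 4 says little about the group. Their values lay between 4.00 and 6.23. The difference was 0.33 for prickle1b (SE 0.33, adjusted p 0.527) and 0.52 for prickle2b (SE 0.66, adjusted p 0.636), and prickle2b scattered within hMYC-ER from 4.00 to 6.23. With the floor lowered to 1, vangl2 passed (0.76, adjusted p 0.0378), on signals that all lie below 16.

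**Figure D4:**
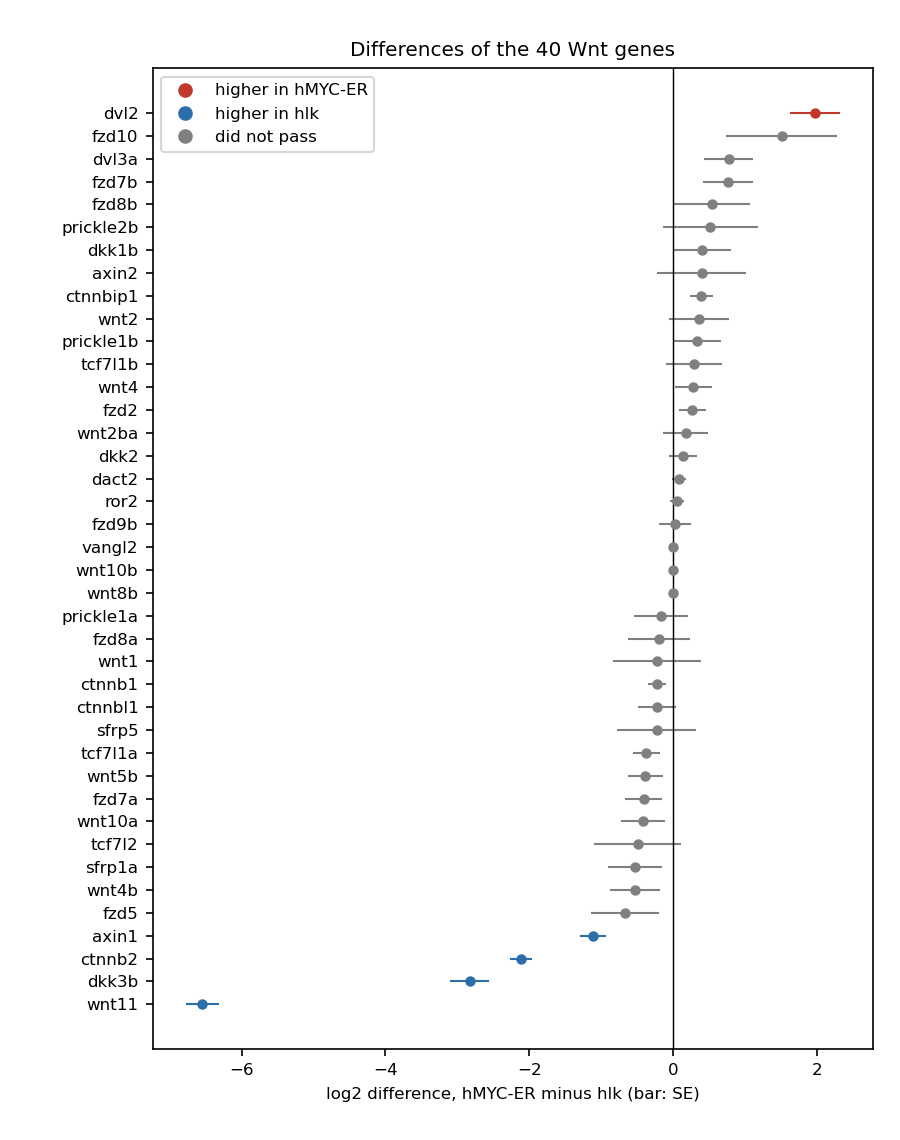
Log2 difference, hMYC-ER minus hlk, with its SE for each of the 40 Wnt genes, sorted from highest to lowest (red, higher in hMYC-ER; blue, higher in hlk; grey, did not pass). The 35 genes that did not pass lie between -0.67 and 1.51, and wnt11 stands apart at -6.55.

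The rest of the pathway was read from lists of genes outside the symbols above. Of 158 listed genes, 61 were measured, and 7 were higher in hMYC-ER and 10 lower. That is 27.9% changed, against 21.8% of all genes and 30.5% of genes with a mean log2 signal above 8, and 40 of the 61 had no array at the floor. They had a median difference of -0.20 against -0.08 over all genes. None of the 7 measured genes for ligand secretion and extracellular modulation was called by limma (0 at an unadjusted p under 0.05). Among them was the R-spondin gene rspo1, a potentiator of Wnt signalling (difference -0.89, adjusted p 0.268), which passed only without hlk array 7 (-1.55, adjusted p 0.0321). Of 3 receptor regulators, the cilium gene tmem67 was higher in hMYC-ER (0.49, SE 0.13, adjusted p 0.0318), a call that ended in 10 of 17 alternatives, among them the fits without hMYC-ER array 1, 3 or 5 and without hlk array 8 or 9 (0.40 to 0.53).

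Of 21 measured genes of the destruction complex and cytoplasmic relay, 5 were lower in hMYC-ER, 1 was higher and 15 did not pass (28.6% changed, against 21.8% of all genes), with a median of -0.36. The casein kinase 1 delta gene csnk1da, which phosphorylates several pathway proteins, read 10.30 ± 0.27 (SD, n = 6) on the hMYC-ER arrays, against 11.83 ± 0.49 (SD, n = 3) on the hlk arrays. They differed by -1.53 (SE 0.24, adjusted p 0.00273). A dimmer csnk1da probe set gave 0.64 (adjusted p 0.570 over all probe sets), and the mean of both did not pass. The ubiquitin ligase gene siah1, which can promote beta-catenin breakdown apart from the Axin complex, differed by -1.18 (SE 0.14, adjusted p 6.75e-04), with 8.05 to 8.63 in hMYC-ER against 9.43, 9.55 and 9.61 in hlk. The kinase gene csnk1g2b (-0.56, adjusted p 0.00562) and the cullin gene cul1b (-0.62, adjusted p 0.0228) were also lower, as was the ubiquitin ligase gene rnf146 (-1.05, adjusted p 0.0309), which falls outside the naming rule. Of its 3 probe sets only this one passed. The call of csnk1g2b ended when its probe sets were averaged (-0.07, adjusted p 0.900), and with a floor of 1 the calls of csnk1g2b and cul1b ended (adjusted p 0.0514 and 0.0690). The Dishevelled-binding gene cxxc5a was higher in hMYC-ER (1.62, SE 0.41, adjusted p 0.0252), although hlk array 8, at 5.76, reached its lowest hMYC-ER value, and its call ended without hlk array 7 (1.33, adjusted p 0.0842), hlk array 9 (1.34, adjusted p 0.0932), or hMYC-ER array 2 or 6, and with a floor of 64 (0.27, adjusted p 0.326). The kinase genes gsk3ab and gsk3ba, at the core of the complex, differed by -0.34 and -0.36 and did not pass (adjusted p 0.447 and 0.339).

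Of 15 measured nuclear cofactors, 2 were higher in hMYC-ER, 3 lower and 10 did not pass (33.3% changed, against 21.8% of all genes). Both higher genes encode CtBP corepressors, which can bind Tcf factors. The ctbp2a gene read 7.68 to 8.44 in hMYC-ER (median 7.86), against 4.58, 5.76 and 4.00 in hlk, and the groups differed by 3.15 (SE 0.36, adjusted p 6.05e-04). Its only probe set is marked as able to bind more than 1 transcript, so the signal may not be that of ctbp2a alone. For ctbp1 the values were 10.57 to 10.89 in hMYC-ER and 10.04, 9.99 and 9.93 in hlk (0.72, SE 0.09, adjusted p 9.46e-04). The lower genes were the chromatin remodeller gene smarca4a (-0.75, adjusted p 0.00681), the acetyltransferase gene crebbpb (-0.54, adjusted p 0.0157) and the helicase gene ruvbl1 (-0.44, adjusted p 0.0197). The calls of smarca4a and crebbpb ended when all their probe sets were averaged (-0.25, adjusted p 0.599, and -0.36, adjusted p 0.274), and that of ruvbl1 ended without hlk array 7 (-0.40). The crebbpb and ruvbl1 calls also ended with a floor of 1 (adjusted p 0.0753 and 0.114).

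In the list of the polarity and calcium branches, 15 genes were measured. In hMYC-ER, 3 of them were higher and 2 lower, and 10 did not pass (33.3% changed, against 21.8% of all genes). The calcium-activated kinase gene camk2d1 read 6.60 to 7.79 in hMYC-ER (median 7.31), against 4.00, 5.08 and 4.00 in hlk (2.90, SE 0.32, adjusted p 5.55e-04). The small GTPase gene rac1a read 8.25 to 9.08 in hMYC-ER, against 8.09, 4.00 and 5.37 on hlk arrays 7, 8 and 9. Its difference was 2.85 (SE 0.75, adjusted p 0.0282) with array 7 and 4.01 (adjusted p 3.87e-04) without it, and the call ended without hlk array 8 (1.95, adjusted p 0.0726), hlk array 9 (2.63, adjusted p 0.0937), or any single hMYC-ER array but array 3.

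In the same list, the inversin gene invs, known in mice and frogs to shift signalling from the canonical to the polarity branch by acting on Dishevelled, read 6.01 to 6.19 in hMYC-ER (median 6.17), against 7.98, 7.87 and 7.89 in hlk. This was a narrow spread in both models. The invs difference was -1.79 (SE 0.08, adjusted p 4.65e-06), or 3.46-fold.

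**Figure D5:**
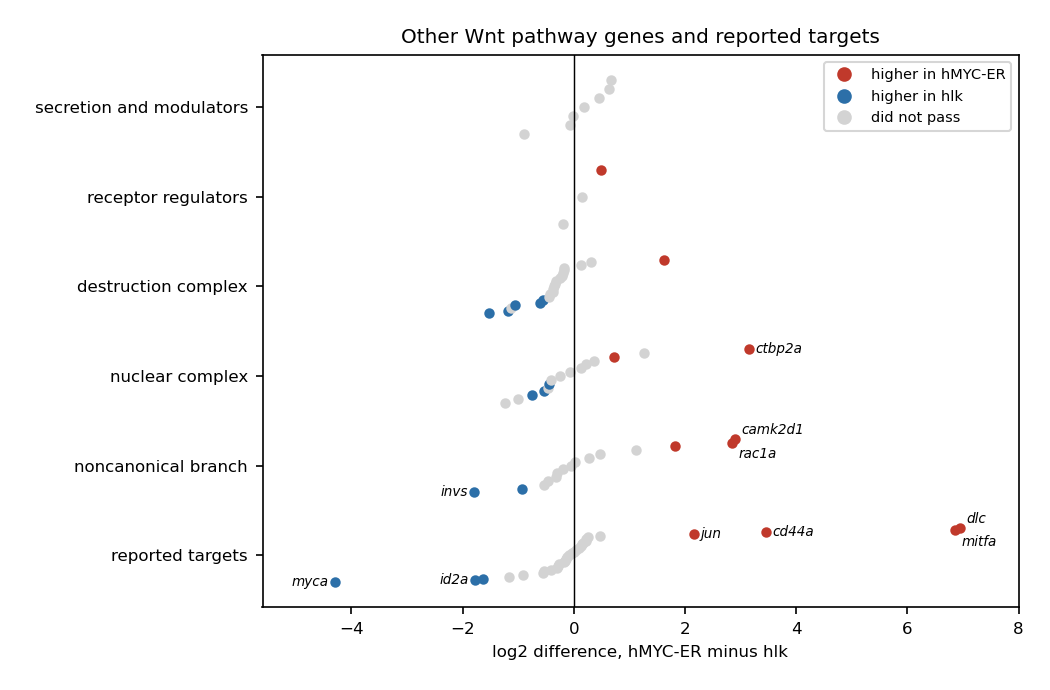
Log2 difference, hMYC-ER minus hlk, of the 61 other pathway genes in 5 lists and of 31 reported target genes, 1 point a gene (lef1 stands in the nuclear list and among the targets) (red, higher in hMYC-ER; blue, higher in hlk; grey, did not pass). Changed genes lie on both sides of 0 in the 3 lists of the destruction complex, the nuclear complex and the noncanonical branch, and also among the targets, where 4 were higher and 3 lower in hMYC-ER.

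A further list held genes reported elsewhere as targets of beta-catenin and Tcf in vertebrates. Of 31 measured, 4 were higher in hMYC-ER, 3 lower and 24 did not pass (22.6% changed, median -0.09), a share close to the 21.8% of all genes. Higher were the Notch ligand gene dlc (6.94, adjusted p 1.57e-05), the pigment cell regulator gene mitfa (6.85, adjusted p 8.04e-05), the adhesion receptor gene cd44a (3.46, adjusted p 0.00557) and the AP-1 gene jun (2.16, adjusted p 0.00440). On hlk arrays 7, 8 and 9, dlc read 4.00, 5.99 and 4.68, and mitfa read 5.82, 4.00 and 4.00. With hlk arrays at the floor, the sizes of both differences depend on it. Both jun probe sets passed, as did 2 of the 3 dlc probe sets (the third gave 0.78, adjusted p 0.100 over all probe sets). The dimmer of the 2 passing dlc probe sets is marked as able to bind more than 1 transcript. The cd44a call ended with a floor of 64 (1.87, adjusted p 0.0882). Lower were myca (-4.29, adjusted p 4.85e-06), the helix-loop-helix inhibitor gene id2a (-1.78, adjusted p 0.00373) and the cyclin gene ccnd1 (-1.64, adjusted p 0.0405). For id2a the values were 7.58 to 8.14 in hMYC-ER, against 9.21, 10.60 and 9.42 in hlk. A second ccnd1 probe set did not pass (-1.86, adjusted p 0.0533 over all probe sets). The ccnd1 call ended in 10 of 17 alternatives, among them the fits without hlk array 7 (-1.83, adjusted p 0.0597), hlk array 8 (-0.96, adjusted p 0.0544) or any single hMYC-ER array. Many of these targets are also set by other pathways in blood cells.

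Of these 31 targets, 10 had no array at the floor and 1, bmp4, was at the floor on all 9 arrays. The targets list was drawn up from general knowledge of vertebrate embryos and tumours, with no lymphoid source.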

How the data were processed

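Per the labels' protocols, Trizol-extracted RNA of the sorted cells, 100 ng a sample, was labelled with biotin for Affymetrix arrays. The authors deposited linear intensities, 1 for each probe set of an array, brought to a common scale (mean of 500.1 to 500.2 once the outer 2% of each tail was dropped). How probes were summarised was not given in the sources used here.

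Of 15617 probe sets, 115 array controls were left out. The remaining 15502 were quantile normalized, floored at 16 (15.8% to 20.2% of deposited intensities lay below it) and put on the log2 scale. Models were compared with limma 3.58.1 (lmFit, eBayes) in R 4.3.3 on all probe sets, and p-values were adjusted by Benjamini-Hochberg over the 8793 genes with 1 symbol or, where stated, over all probe sets. Every adjusted p comes from limma. The fit was also run on simulated arrays with normal noise, with changes placed only on probe sets averaging above a log2 signal of 6. That run does not cover the dimmer range, where 30 of the 40 Wnt genes lie. Symbols came from the platform annotation and were updated by Entrez identifier with assembly GRCz12tu, which changed none of the 40. A further 2 probe sets matched only with several symbols and were left out. Python 3.11.15 with matplotlib 3.10.9 made the figures.

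Named were all changed Wnt genes, the 2 with the smallest p per role among the rest, up to 4 changed genes per direction in each pathway list (or the 1 with the smallest p), and lef1. Other names were added after the values were seen. A pair of genes that this rule names is not reported here. Members and lists were chosen with earlier results of these data known, so no list was tested as a set. The number of arrays limits the precision. Alternatives were signals as deposited, centring on medians, floors of 1 and 64, leaving out the dimmest 1 in 3 probe sets, an intensity trend with robust prior, array weights, averaging the probe sets of each gene, and leaving out each array in turn.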

Additional observations from a re-analysis of the deposited data

Results flagged for a closer look

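Within the 6 hMYC-ER arrays, Dixon's test was run on 61 genes with unequal values and marked 8 (13.1%) with 1 array apart from the other 5. These 61 are not the same set as the 61 other pathway genes above. All 8 marked genes are among the 40 Wnt genes. The usual rate of about 1 in 20 holds for normal values without a floor. For 4 of the 8 the other 5 arrays were tied at the floor, where any higher value is marked. The share marked therefore cannot be set against that rate. The only marked gene with no hMYC-ER array at the floor was the decoy gene sfrp5, at 4.39 on array 6 and 6.40 to 6.96 on the others. Array 1 was high for wnt2 (5.83, others at most 4.32), dkk1b (5.76, others at most 4.63) and dkk2 (4.81, all others at the floor). Array 3 was high for prickle1a (5.21, others at most 4.31). For ror2 (4.32 on array 4), wnt10a (4.36 on array 5) and wnt11 (4.11 on array 5), the other 5 arrays were all at the floor. With the exception of sfrp5, these marks rest on groups that lie mostly at the floor, and none concerns hlk, whose 3 arrays are too few for the test.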

How the results depend on the processing

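All 5 changed Wnt genes kept their call and direction under each of the 17 alternatives that measured them (dkk3b, too dim, was not measured with the dimmest 1 in 3 probe sets left out). The number of changed Wnt genes ran from 4 to 7 (5 to 6 when single arrays were left out), that of other pathway genes from 13 to 20, that of targets from 6 to 8 and that of all genes from 1475 to 1960. No paired analysis was possible because the sample numbers of the models do not overlap. Signs were followed for 48 genes, those named by the rule above and the Wnt genes whose call changed under an alternative. The other genes, sfrp5 among them, were not followed. Within the 48, signs turned only for genes that did not pass. With arrays centred on their medians, the median of all genes moved to -0.20, and ror2 became -0.10, dact2 -0.17, fzd9b -0.019 and lef1 -0.042. With signals as deposited, dact2 became -0.043. For axin2 the value was -0.081 with a floor of 64, -0.0040 with array weights and -0.45 without hlk array 7 (up to 0.88 without another single array). For ctnnb1, averaging its probe sets gave 0.24. Without 1 array, fzd9b ran from -0.23 to 0.18. The cause of these turns was not tested. Signals near the floor and the 3 hlk arrays, of which array 7 had a low weight (0.30), limit what small differences can show.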
